A study of Mus musculus with 4 samples.

Results

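Interleukin receptors set which cytokines a CD8 T cell can respond to, and the 10 receptor chains described here are Il7r, Il2ra, Il2rb, Il2rg, Il6ra, Il12rb1, Il12rb2, Il18r1, Il18rap and Il10ra. They were chosen by gene symbol, and each symbol matched a single row, so they make up 10 of the 55401 genes in the table. RNA was measured in P14 CD8+ T cells, mouse T cells with a transgenic receptor against lymphocytic choriomeningitis virus (LCMV), recovered from spleen after infection with the Armstrong strain. Both groups consisted of transduced cells, one with an empty control vector and one with a vector for overexpression of Hic1, a zinc finger transcriptional repressor, with 2 libraries each. The sample labels place the harvest at day 32 after infection and the series text at day 7. Mouse strain, age, the host of the P14 cells and whether a replicate came from 1 mouse or several were not stated, so p-values measure the spread between these samples.

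Receptors of the common gamma chain family pair a private chain with Il2rg. Il7r, the alpha chain for IL-7, supports survival of naive and memory T cells and is typically low on effector cells. Il2rb completes the receptor for IL-15, which maintains CD8 memory, and for IL-2, whose affinity is raised by the activation-induced alpha chain Il2ra. IL-12 and IL-18 are inflammatory cytokines that together drive interferon gamma production in effector and memory CD8 T cells. IL-12 acts through Il12rb1 and Il12rb2, and IL-18 through the binding chain Il18r1 and the accessory chain Il18rap. Il6ra binds IL-6 and signals through gp130 (Il6st), and Il10ra is the ligand-binding chain for the anti-inflammatory cytokine IL-10.

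The start regions of Il7r, Il18r1 and Il6ra are shown because these 3 members had the largest differences between the vectors. Each is a RefSeq window of GRCm38.p6 from 250 bases before to 50 bases after an annotated start, printed on the gene's strand, with GGGCA, a part of the known Hic1 recognition site that contains its shorter core GGCA, and the reverse complement TGCCC in capitals. The Il7r window is chr15:9529827-9530126 on the minus strand, the Il18r1 window is chr1:40465302-40465601 on the plus strand and the Il6ra window is chr3:89913147-89913446 on the minus strand. The Il7r window is built on a RefSeq start 300 bases downstream of the GENCODE start of the gene, so it lies inside the GENCODE gene and does not cover the sequence before that start.
Il7r: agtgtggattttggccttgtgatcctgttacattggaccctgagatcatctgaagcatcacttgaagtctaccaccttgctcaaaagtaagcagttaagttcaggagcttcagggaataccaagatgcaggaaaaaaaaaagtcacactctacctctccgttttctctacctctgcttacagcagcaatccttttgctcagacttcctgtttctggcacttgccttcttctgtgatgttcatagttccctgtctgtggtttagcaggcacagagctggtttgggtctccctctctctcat
Il18r1: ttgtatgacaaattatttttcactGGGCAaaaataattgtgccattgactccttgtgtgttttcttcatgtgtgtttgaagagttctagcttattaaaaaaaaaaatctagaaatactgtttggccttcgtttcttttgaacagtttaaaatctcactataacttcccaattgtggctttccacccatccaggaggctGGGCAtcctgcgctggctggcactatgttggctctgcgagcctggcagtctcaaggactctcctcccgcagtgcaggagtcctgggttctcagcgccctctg
Il6ra: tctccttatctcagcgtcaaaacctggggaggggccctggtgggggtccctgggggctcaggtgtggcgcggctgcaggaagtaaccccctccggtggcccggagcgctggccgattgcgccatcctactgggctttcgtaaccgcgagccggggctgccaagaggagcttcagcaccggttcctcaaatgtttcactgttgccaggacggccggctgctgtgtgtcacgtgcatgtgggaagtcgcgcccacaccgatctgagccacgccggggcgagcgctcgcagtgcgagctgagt
The Il18r1 window held 2 matches, starting 226 and 52 bases before the start, while the Il7r and Il6ra windows held 0. Of 32851 such windows in the RefSeq table, 53.5% held at least 1 match on either strand and 20.8% at least 2. The shorter GGCA or TGCC, which every match of GGGCA or TGCCC also contains, occurred 3 times in the Il7r window, 5 times in the Il18r1 window and 2 times in the Il6ra window, and 92.4% of all windows held it. Of the other members, Il2ra (1 match) and Il12rb2 (2 matches) held the motif and Il2rg and Il18rap did not. Of the 10 members, 7 had a window in the table. The other two annotated starts of Il18r1 had 2 matches and 1 match. A match of 5 letters is a description of these windows and not evidence of binding.

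Total gene counts ranged from 3941364 to 4017346 for the empty vector and from 7501285 to 8839317 for the Hic1 vector, so depth went with the group. Hic1 itself gave 3 and 5 counts with the empty vector, against 314 and 161 with the Hic1 vector, in the direction of the labels. All 10 CD8 T cell markers fixed for the check were present, at a summed 7319 to 7899 CPM (counts scaled to the same library size) with the empty vector and 8431 to 9499 CPM with the Hic1 vector. Among the markers of other cells, Cd4, Ms4a1, Lyz2, Cd14 and Ncr1 were at most 1.48 CPM in any library, but others on the same lists were higher. Klrb1c of the NK list was at 29.4 and 43.7 CPM with the empty vector and 58.6 and 70.8 CPM with the Hic1 vector. Csf1r of the myeloid list reached 5.25 CPM (empty vector replicate 2) and Fcgr3 of the NK list 5.63 CPM (Hic1 vector replicate 1). The CD4 T cell list summed to 23.98 to 27.9 CPM with the empty vector against 30.5 to 51.4 CPM with the Hic1 vector, nearly all of it Zbtb7b and Cd40lg. The B cell list summed to 7.50 to 19.2 CPM against 16.9 to 41.8 CPM, the myeloid list to 56.6 to 66.2 CPM against 48.3 to 55.4 CPM and the NK list to 39.1 to 58.7 CPM against 76.3 to 88.5 CPM. The dendritic cell list summed to 16.0 to 21.2 CPM against 21.3 to 21.5 CPM, and the part of these lists in the results was not tested. Xist was present in both libraries numbered 1 (1885 and 3590 counts) and nearly absent from those numbered 2 (0 and 3 counts), and the reverse held for Y-linked Eif2s3y (0 in those numbered 1, 396 and 951 counts in those numbered 2). The difference within each replicate number is therefore given beside the main members.

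The comparison asks which receptor transcripts differ when Hic1 is overexpressed. Among the members Il18r1 and Il6ra fell with the Hic1 vector, none rose and 8 did not pass. Of all 11676 genes tested, 213 passed, which is 1.82%, with 1.1% lower and 0.719% higher. Genes were called where the quasi-likelihood F test of edgeR gave a Benjamini-Hochberg adjusted p under 0.05, adjusted across every gene tested. With library sizes alone as the scaling the split over all genes was 70 higher and 251 lower, against 84 and 129 here, and the same pair of members passed. Il6ra was abundant enough to be tested through the empty vector libraries alone, so a difference was part of its being tested, and of the other 9 members 1 was called. The median log2 fold change of the members was -0.22, or 0.03 without Il6ra, against 0.01 over all genes, and their median absolute value was 0.47 with or without Il6ra, against 0.30. Groups did not overlap for 7 members, 3 higher and 4 lower with the Hic1 vector, where 51.4% of all genes tested had no overlap (26.5% higher and 24.9% lower). In bulk RNA, fewer cells with a transcript and less of it per cell cannot be told apart. Without empty vector replicate 1 no member passed, although 4 of 10 still had an unadjusted p below 0.05, as did 10.3% of all genes in that fit, and 8 genes of the whole table passed by the same edgeR test. With all libraries DESeq2 called 3 members, and 403 of all 11676 genes tested, and limma voom 1 member, and 121 of all 11676.

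**Figure D1:**
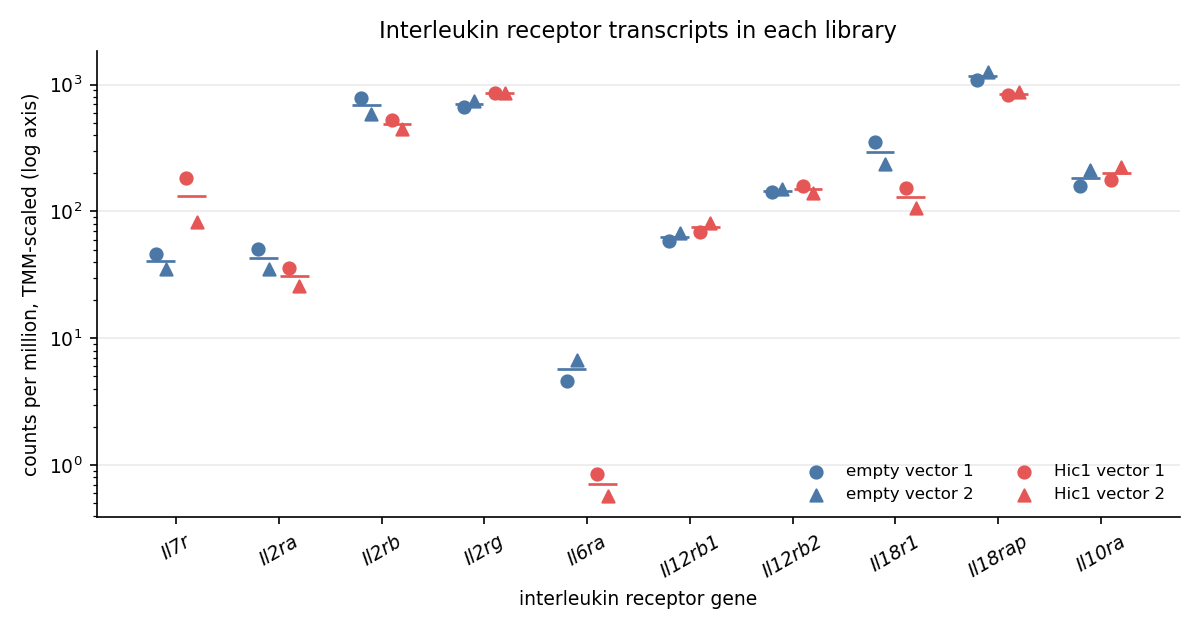
CPM of the 10 interleukin receptor genes (log axis) in the 4 libraries, blue for the empty vector and red for the Hic1 vector, with circles for replicate 1, triangles for replicate 2 and short lines for group means. Il7r was higher in both Hic1 vector libraries (184.3 and 82.8 CPM) than in either empty vector library, and Il18r1 and Il6ra were lower in both.

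Il7r (chromosome 15, positions 9505788 to 9530176, minus strand, mm10) had the largest difference in the upward direction among the members, but it did not pass over all genes. Its level was 46.1 and 35.0 CPM with the empty vector and 184.3 and 82.8 CPM with the Hic1 vector. The groups did not overlap, and the Hic1 vector libraries differed from each other by more than the empty vector libraries did. The log2 fold change was 1.71 ± 0.395 (SE, n = 2 per group), or 3.27-fold, with an adjusted p of 0.0966 in the edgeR fit. The log2 difference was 1.99 between the libraries numbered 1 and 1.24 between those numbered 2. Its absolute log2 fold change was larger than that of 98.7% of genes tested. The gap between the Hic1 vector libraries was 1.15 on the log2 scale, larger than in 94.7% of genes, where the median gap was 0.26. Hic1 vector replicate 1 also had the highest sums of the B cell list (41.8 CPM, of which 38.0 were Cd79b) and of the CD4 T cell list (51.4 CPM, of which 32.5 were Cd40lg). Ms4a1 and Pax5 were at most 0.570 CPM and Cd4 at most 0.704 CPM in any library. The same library had the highest share of counts in a single row, CT010467.1, at 13.4% against 5.16% to 8.38% in the others. Hic1 itself was also higher in that library, at 44.2 CPM against 18.3 CPM in Hic1 vector replicate 2. The part of these in the Il7r level was not tested. The log2 fold change was 1.92 without empty vector replicate 1 and 1.51 without empty vector replicate 2. There the spread came from the Hic1 vector libraries alone. Without Hic1 vector replicate 1, the higher library, the log2 fold change was 1.03, and without Hic1 vector replicate 2 it was 2.18. Both fits without a Hic1 vector library take their spread from the empty vector libraries alone. The gap between the Hic1 vector libraries is therefore left out of their error. Over the 13 alternatives the log2 value ran from 1.03 to 2.18. Of these alternatives 6 called Il7r, both of those fits and DESeq2 (adjusted p = 3.03e-05) among them and limma voom not. With all libraries the adjusted p ran from 4.04e-15 (no filter) to 0.109 (at least 30 counts in 2 libraries), both by the edgeR test.

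The other chains of the common gamma family differed less. Il2ra, the activation-induced alpha chain, was at 50.2 and 35.0 CPM with the empty vector and 36.0 and 25.6 CPM with the Hic1 vector. Its groups overlapped, with a log2 fold change of -0.47 ± 0.258 (SE) and an adjusted p of 0.357 by the edgeR test. With 1 library omitted at a time the Il2ra value ran from -0.18, without empty vector replicate 1, through -0.23, without Hic1 vector replicate 2, to -0.71 and -0.72 without the other two libraries, and none of these passed. Il2rb, the chain shared by IL-2 and IL-15, was at 787.9 and 583.9 CPM against 527.1 and 445.6 CPM. Its groups did not overlap, and its log2 fold change of -0.50 ± 0.16 did not pass (adjusted p = 0.129). Without empty vector replicate 2 the Il2rb value was -0.71, but omitting empty vector replicate 1 gave -0.26 and omitting Hic1 vector replicate 2 gave -0.37. Il2rg, the common gamma chain, is encoded on chromosome X and was at 661.7 and 745.3 CPM against 864.3 and 858.7 CPM. The 2 Hic1 vector libraries were nearly equal and above both empty vector libraries, with a log2 fold change of 0.29 ± 0.122 and an adjusted p of 0.216. Within replicate numbers 1 and 2 the log2 differences were 0.39 and 0.20 for Il2rg, -0.58 and -0.39 for Il2rb and -0.48 and -0.44 for Il2ra.

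Ratios between chains within a library do not depend on how libraries are scaled. Per kilobase of exon, the ratio of Il7r to Il2rg was 0.0357 and 0.0240 with the empty vector and 0.109 and 0.0494 with the Hic1 vector. The ratio of Il2rb to Il2rg was 0.663 and 0.436 against 0.340 and 0.289. For both ratios the groups did not overlap, the first higher and the second lower with the Hic1 vector. The ratio of Il2ra to Il2rb stayed between 0.0432 and 0.0513 in all 4 libraries. The ratio of Il7r to Il2rb, chosen after the data were seen, was 0.0538 and 0.0551 against 0.321 and 0.171, a mean ratio 4.52 times as high with the Hic1 vector. The ratio of Il7r to Il2ra, also chosen then, was 1.12 and 1.22 against 6.26 and 3.96. With the empty vector these ratios to Il7r were nearly the same in both libraries, although both genes of each pair were higher in replicate 1. The ratios are given without a test.

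**Figure D2:**
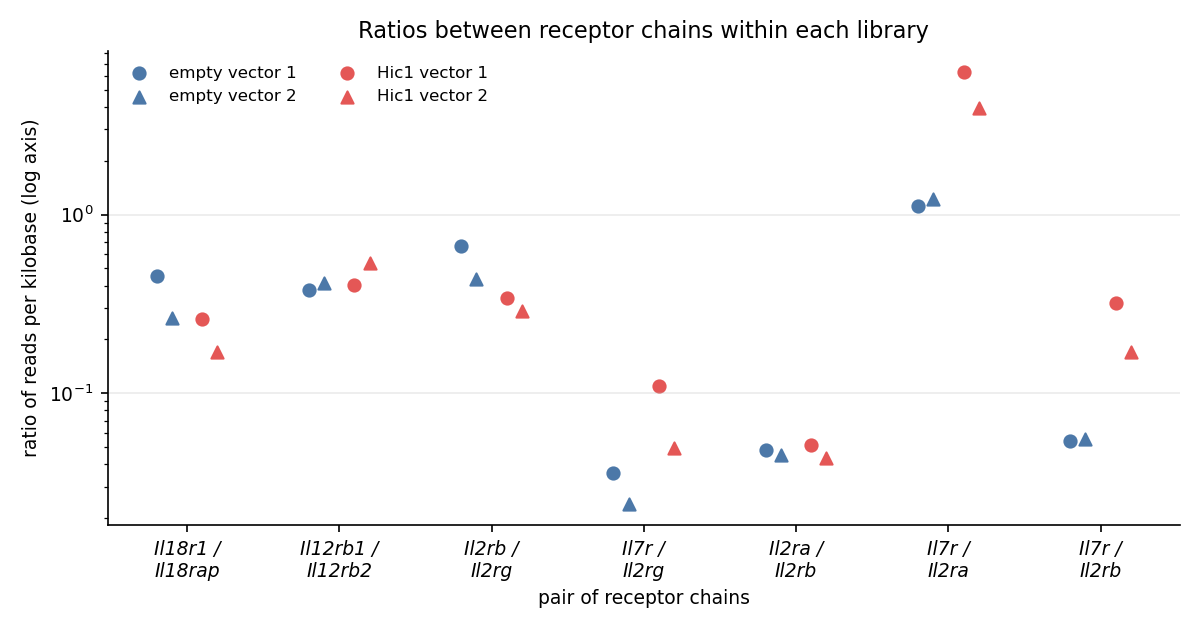
Ratio of reads per kilobase of exon between pairs of receptor chains within each library (log axis), blue for the empty vector and red for the Hic1 vector, circles for replicate 1 and triangles for replicate 2. The ratio of Il2ra to Il2rb was alike in all libraries (0.0432 to 0.0513), while the ratio of Il7r to Il2rb was near 0.05 with the empty vector and 0.171 and 0.321 with the Hic1 vector.

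Il18r1, the IL-18 binding chain (chromosome 1, positions 40465552 to 40500854, plus strand), fell with the Hic1 vector. Its level was 355.1 and 237.6 CPM with the empty vector and 154.2 and 105.7 CPM with the Hic1 vector. Both Hic1 vector libraries lay below both empty vector libraries. The log2 fold change was -1.19 ± 0.232 (SE, n = 2 per group), 2.28-fold lower, with an adjusted p of 0.0465 in the edgeR fit. Within replicate numbers 1 and 2 the log2 differences were nearly equal, -1.20 and -1.17. The call is close to the threshold. It was lost without empty vector replicate 1 (-0.87, adjusted p = 0.223), without Hic1 vector replicate 2 (-0.94, adjusted p = 0.0635), with DESeq2 size factors in edgeR (-1.20, adjusted p = 0.0505) and after removal of a GC trend (-1.05, adjusted p = 0.0665). The other 9 of 13 alternatives called it, DESeq2 and limma voom included, and the log2 value ran from -1.48 to -0.87 with adjusted p from 1.23e-09 to 0.223.

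Il18rap, the accessory chain, lies 14507 bases downstream of Il18r1 on the same strand and was at 1093 and 1259 CPM against 835.7 and 867.1 CPM, without overlap between the groups. Its log2 fold change of -0.47 ± 0.121 did not pass (adjusted p = 0.0729 by the edgeR test), and the differences within replicate numbers 1 and 2 were -0.39 and -0.54. The ratio of Il18r1 to Il18rap per kilobase was 0.456 and 0.264 with the empty vector and 0.259 and 0.171 with the Hic1 vector. These ranges did not overlap, but the lower empty vector library and the higher Hic1 vector library were close. Over the 4 libraries the ratio of Il18r1 to Il18rap was higher in replicate 1 than in replicate 2 of both groups.

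Il6ra, the IL-6 binding chain (chromosome 3, positions 89864059 to 89913196, minus strand), was the least abundant member and fell with the Hic1 vector. Reads were few, with counts of 19 and 27 for the empty vector and of 6 and 5 for the more deeply sequenced Hic1 vector libraries. In CPM this was 4.61 and 6.75 against 0.845 and 0.570, without overlap. The log2 fold change was -2.54 ± 0.575 (SE, n = 2 per group), 5.81-fold lower, with an adjusted p of 0.0489 in the edgeR fit. Within replicate numbers 1 and 2 the log2 differences were -2.07 and -2.97. Of 10 myeloid markers, 2 were lower with the Hic1 vector without overlap, Itgam (33.5 and 28.2 CPM against 15.5 and 17.8 CPM) and Adgre1 (1.46 and 2.5 CPM against 0 and 0 CPM). Cd68 was higher without overlap (12.6 and 26.2 CPM against 27.6 and 26.9 CPM), and the groups of the other 7 overlapped. Lyz2 was at 0 in 3 libraries and at 1.48 CPM in Hic1 vector replicate 2, and the part of these markers in the Il6ra result was not tested. The filter on low counts lay at 1.74 CPM, which Il6ra reached in the empty vector libraries alone. The remaining 9 members were above that level in all 4 libraries. The Il6ra call was lost whichever 1 of the 4 libraries was left out, either empty vector library or either Hic1 vector library (log2 value -2.81 to -2.29, adjusted p 0.0842 to 0.210). It was also lost with limma voom (adjusted p = 0.0731), with DESeq2 size factors in edgeR (0.0524) and after GC correction (0.0585). In total 5 of 12 alternatives called it, with adjusted p from 0.0111 to 0.210. Its partner gp130 (Il6st), named after its values were seen, was at 19.7 and 9.74 CPM against 9.57 and 10.8 CPM, and its groups overlapped.

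The IL-12 receptor chains and the IL-10 receptor chain did not pass. Il12rb1, the chain shared by IL-12 and IL-23, was at 58.3 and 67.5 CPM with the empty vector and 69.4 and 80.7 CPM with the Hic1 vector. The groups did not overlap, though the nearest libraries were close, and the log2 fold change was 0.26 ± 0.181 (SE) with an adjusted p of 0.480 by the edgeR test. After GC correction the Il12rb1 value was 0.02 (adjusted p = 0.968), and it ran from 0.15 to 0.36 with 1 library omitted, lowest without Hic1 vector replicate 2 (0.15) or empty vector replicate 1 (0.16). Il12rb2, the chain that couples IL-12 to STAT4, was at 141.5 and 150.2 CPM against 159.0 and 139.4 CPM. Its groups overlapped, and the log2 fold change was 0.03 ± 0.151, an estimate whose sign changed in 4 of 13 alternatives. Part of the Il12rb2 locus overlaps Serbp1 on the opposite strand (1418 to 2153 counts), and no source used here says whether counting took strand into account. Il10ra was at 159.5 and 210.9 CPM against 177.3 and 225.6 CPM, with overlapping groups and a log2 fold change of 0.12 ± 0.178, or 0.01 after GC correction. Within replicate numbers 1 and 2 the log2 differences were 0.25 and 0.26 for Il12rb1, 0.17 and -0.11 for Il12rb2 and 0.15 and 0.10 for Il10ra. The ratio of Il12rb1 to Il12rb2 per kilobase was 0.38 and 0.415 against 0.404 and 0.535, and the groups overlapped.

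**Figure D3:**
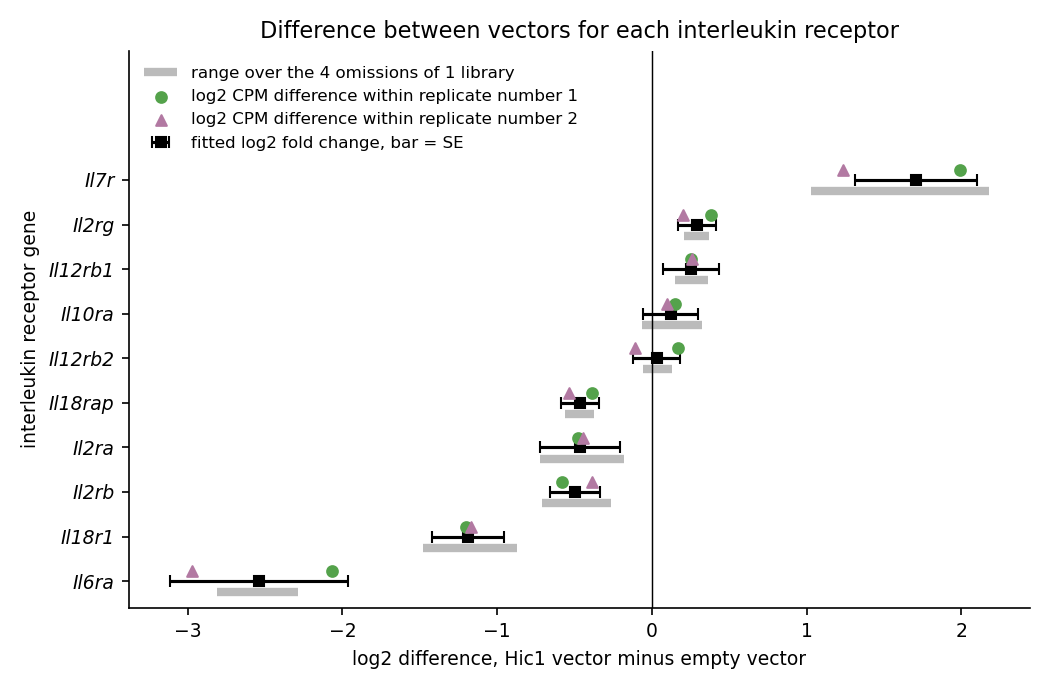
Log2 difference, Hic1 vector minus empty vector, for each member, with the fitted log2 fold change and its SE (squares and bars), the differences within replicate numbers 1 and 2 (green circles and purple triangles) and the range over the omissions of 1 library (grey bars). Il7r stood at 1.71, Il18r1 at -1.19 and Il6ra at -2.54, and the range of Il12rb2 and Il10ra over the omissions crossed 0.

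**Figure D4:**
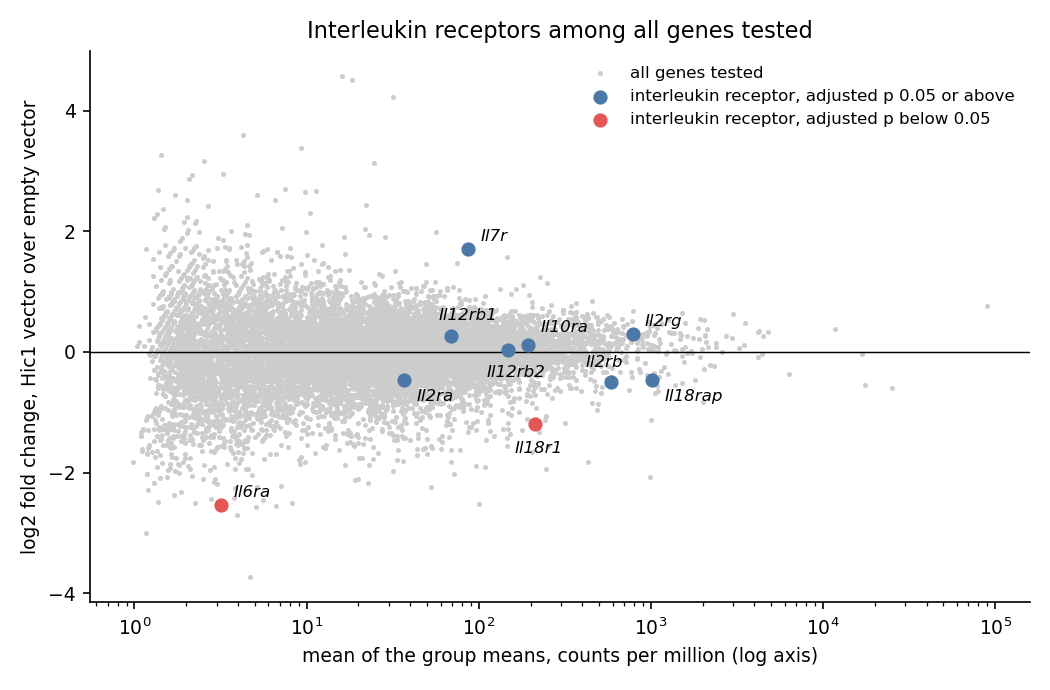
Fitted log2 fold change against the mean of the group means in CPM (log axis) for the 11676 genes tested (grey) and the 10 members, red where the adjusted p was below 0.05 and blue otherwise. Il7r and Il6ra lay near the edge of the cloud of genes at their level, and the abundant chains Il2rg and Il18rap lay at 0.29 and -0.47.

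Levels between genes were compared as CPM divided by the length of merged exons in kilobases (RPKM). With the empty vector the order from high to low was Il2rg (294.7 ± 24.8 RPKM, SD, n = 2), Il18rap (174.1 ± 17.4), Il2rb (160.0 ± 33.7), Il18r1 (61.5 ± 17.3), Il10ra (52.9 ± 10.4), Il12rb2 (38.4 ± 1.61), Il12rb1 (15.3 ± 1.58), Il7r (8.70 ± 1.69), Il2ra (7.46 ± 1.89) and Il6ra (0.657 ± 0.175). In that order Il18rap and Il2rb, Il18r1 and Il10ra, and Il7r and Il2ra were neighbours whose libraries overlapped. With the Hic1 vector Il7r stood sixth, at 28.6 ± 15.4 RPKM, and Il18r1 seventh, at 27.0 ± 7.11 RPKM. Il7r then overlapped both of its neighbours, Il12rb2 above (39.3 ± 3.65 RPKM) and Il18r1 below. Il2rg, Il18rap and Il2rb kept the top places and Il2ra and Il6ra the last in both groups.

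The libraries of a group also differed from each other, and for many members in the same direction in both groups. The gap between replicates 1 and 2 had the same sign with both vectors for 7 of 10 members, against 57.3% of all genes tested. Il7r, Il2ra, Il2rb and Il18r1 were higher in replicate 1 of both groups, and Il12rb1, Il18rap and Il10ra were higher in replicate 2 of both. For Il18r1 the gaps were 0.58 and 0.54 on the log2 scale, and for Il2ra 0.52 and 0.49. For Il10ra they were -0.40 and -0.35, and for Il12rb1 -0.21 and -0.22. The members with the widest gaps in the empty vector group were Il18r1, Il2ra and Il6ra, and in the Hic1 vector group Il7r. The vector difference had the same sign within both replicate numbers for 9 of 10 members, against 67.8% of all genes tested, and Il12rb2 was the exception.

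**Figure D5:**
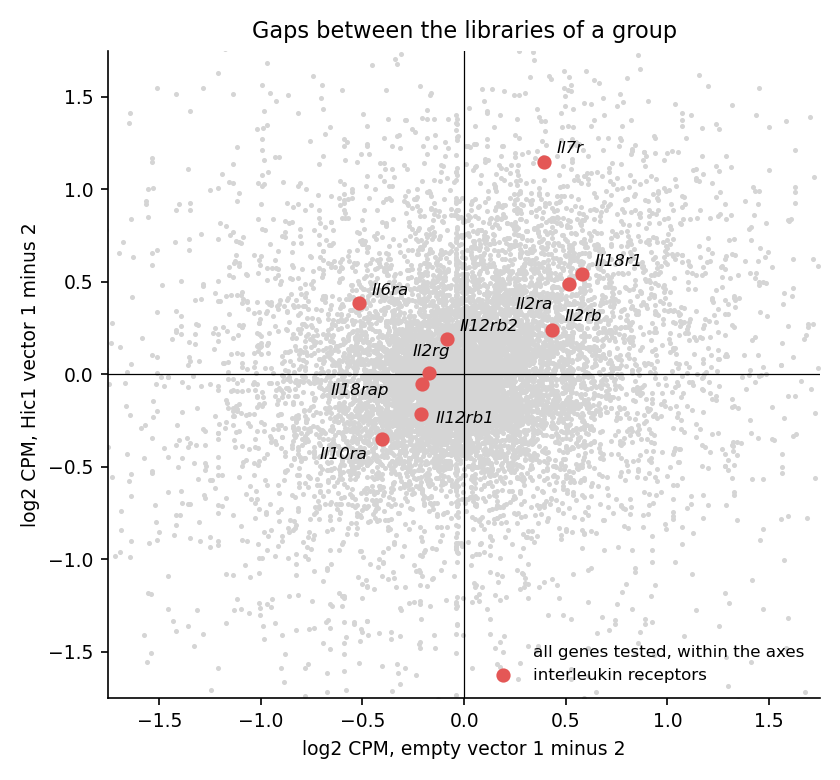
Difference in log2 CPM between replicates 1 and 2 in the empty vector group (x axis) and in the Hic1 vector group (y axis), for genes tested (grey, within the axes shown) and the 10 members (red). Il18r1, Il2ra and Il10ra had gaps of nearly equal size in both groups, while the gap of Il7r was 0.40 with the empty vector and 1.15 with the Hic1 vector.

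Genes with a pattern most like a member were found by the Euclidean distance between centred log2 CPM profiles over the 4 libraries, among 6368 other genes tested with a mean of at least 20 CPM. Nearest to Il7r were Als2cl (distance 0.56), Furin (0.68) and Gpr183 (0.73). Nearest to Il18r1 were Cyb5r4 (0.10), Pcmtd1 (0.13) and Xpa (0.15), and nearest to Il6ra were Desi1 (0.90), Eif3f (0.91) and Rrs1 (0.93). Between chains of the same receptor the distance was 1.00 for Il18r1 and Il18rap, 0.37 for Il12rb1 and Il12rb2, 0.90 for Il2rb and Il2rg, 1.60 for Il7r and Il2rg and 0.18 for Il2ra and Il2rb.

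Among other cytokine receptor chains Sigirr rose, none fell and 19 of 20 tested did not pass, out of 37 listed. Sigirr, an inhibitory member of the IL-1 receptor family that restrains IL-1 and IL-18 receptor signalling, was at 55.8 and 69.2 CPM with the empty vector and 111.9 and 114.7 CPM with the Hic1 vector. Its groups were well apart, with a log2 fold change of 0.86 ± 0.17 (SE) and an adjusted p of 0.0344 by the edgeR test. Of the 20 chains tested 14 had a fold change above 0, with a median of 0.14. Of 16 adaptors and kinases of IL-18 receptor signalling none passed by edgeR, DESeq2 or limma voom, 6 had an unadjusted p below 0.05, where 19.1% of all genes tested did, and 11 had a fold change above 0 (median 0.28). Myd88, the adaptor of the IL-18 receptor, was at 88.7 ± 16.3 against 125.3 ± 1.45 CPM (SD, n = 2), and the kinase Ikbkb at 167.4 ± 21.9 against 238.4 ± 10.7 CPM (adjusted p = 0.100 by the edgeR test). The kinase Irak1, among the 5 with a fold change below 0, was lower without overlap (61.2 and 51.0 CPM against 34.9 and 41.5 CPM). Sigirr was called in 9 of 13 alternatives. Its call was lost without empty vector replicate 1 (0.71, adjusted p = 0.268), without Hic1 vector replicate 2 (0.84, adjusted p = 0.0778), after GC correction (0.63, adjusted p = 0.0972) and with limma voom (0.87, adjusted p = 0.0531).

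Of 11 Janus kinases and STATs none passed by edgeR, 3 had an unadjusted p below 0.05 (19.1% over all genes tested), DESeq2 called 1 and limma voom none. Fold changes were above 0 for 10 of them and below 0 for 1 (median 0.19). Jak3, the kinase bound to the common gamma chain, was at 153.9 and 172.1 CPM against 265.3 and 236.2 CPM (log2 fold change 0.62 ± 0.146, adjusted p = 0.0564 by the edgeR test). Jak1, its partner on the private chains, was at 2116 and 2058 CPM against 1393 and 1633 CPM (-0.46 ± 0.118, adjusted p = 0.0679). The groups of both kinases did not overlap, with Jak3 higher and Jak1 lower. Among 15 negative regulators of this pathway Socs4 fell, none rose and 14 did not pass. Fold changes were above 0 for 7 of them and below 0 for 8 (median -0.11). Socs4, a member of the suppressor of cytokine signalling family, was at 61.4 and 44.7 CPM against 19.3 and 19.7 CPM, with a log2 fold change of -1.43 ± 0.238 and an adjusted p of 0.0197. It lost its call in 1 of 13 alternatives, without empty vector replicate 1 (-1.18, adjusted p = 0.184).

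Response genes of the receptors included 1 that rose, Myc, and 1 that fell, Tbx21. Among 17 STAT5 response genes Myc rose, none fell and 16 did not pass. Myc, a growth-promoting transcription factor, was at 17.2 and 19.5 CPM against 51.8 and 42.2 CPM, with a log2 fold change of 1.34 ± 0.239 (SE) and an adjusted p of 0.0238 by the edgeR test. Among 9 STAT4 response genes Tbx21, the effector transcription factor T-bet, fell (-0.84 ± 0.17), none rose and 8 did not pass. Of the 9, 4 had a fold change above 0 and 5 below (median -0.16). Of 8 STAT3 response genes none passed by edgeR or limma voom, 2 had an unadjusted p below 0.05 (again beside 19.1% of all genes), DESeq2 called 1 and 6 had a fold change above 0 (median 0.57). Junb, an AP-1 subunit, was the STAT3 response gene of lowest p, at 191.0 and 159.1 CPM against 329.2 and 252.6 CPM (adjusted p = 0.0503). Without empty vector replicate 1 neither Myc (1.26, adjusted p = 0.176) nor Tbx21 (-1.01, adjusted p = 0.0693) passed, and Tbx21 also missed the threshold when empty vector replicate 2 (-0.66) or Hic1 vector replicate 2 (-0.65) was omitted.

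Of 10 transcription factors that act on Il7r, Runx3 fell and 9 did not pass. Runx3, a factor of the CD8 lineage, was at 263.9 and 209.1 CPM against 139.5 and 149.7 CPM (log2 fold change -0.71 ± 0.157, adjusted p = 0.0475 by the edgeR test). It was called in 8 of 13 alternatives, and among the omissions it was called without empty vector replicate 2 only. Foxo1, an activator of Il7r, was at 46.1 and 25.7 CPM against 63.1 and 45.7 CPM, and its groups overlapped. Gfi1, a repressor of Il7r, was at 3.68 ± 0.97 against 7.24 ± 0.88 CPM (SD, n = 2). Gabpa (80.3 and 50.5 CPM against 36.3 and 47.3 CPM) and Nr3c1 (54.1 and 45.5 CPM against 38.3 and 27.3 CPM) were lower without overlap. Foxo1, Gfi1, Gabpa and Nr3c1 did not pass. Of the 10 factors, 5 had a fold change above 0 and 5 below (median -0.001). Of 18 interleukin ligand genes only Il15 was abundant enough to test, at 3.40 and 2.75 CPM against 8.45 and 6.61 CPM, and it did not pass (log2 fold change 1.20 ± 0.454, adjusted p = 0.179). The ligand list summed to between 7.25 and 14.9 CPM in each library. Over all lists, which share some genes, 5 of 99 pathway genes tested passed, 2 higher and 3 lower, against 1.82% of all genes tested. The lists were chosen with earlier results of these data known, so this comparison is not independent of the data.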

How the data were processed

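Whole-number read counts for each gene and each of the 4 libraries came from the deposited raw table. Per the labels' protocols, libraries were made by Smart-seq2 from lysate of about 1000 resorted cells. The genome mm10, featureCounts 1.5.3, STAR 2.5.2b, Trimmomatic 0.38 and DESeq2 1.3.2 are listed per the submitters' processing notes, which state neither roles nor settings. The deposited normalized table, a rescaling of the same counts, was not used. Genes kept by filterByExpr (minimum count 10, minimum total 15) in edgeR 4.0.16 (R 4.3.3) were TMM-scaled, and a model with group as its single term was tested by the robust quasi-likelihood F test (prior count 2), and the p-values were adjusted by Benjamini-Hochberg over all 11676. The SE is the absolute log2 fold change divided by the square root of F. CPM uses TMM-scaled library sizes. Exon length, GC content and coordinates come from GENCODE M21, in which all 10 members had the same identifier version. DESeq2 1.42.0 and limma 3.58.1 were alternatives. Leaving out a library leaves 1 in its group, which is then assumed to vary like the other group.

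The members and lists were chosen with earlier results of these data known. A gene of the B cell list is not reported here and was left out of its sums. Named genes are the members, Hic1, every called gene of a list or else up to 3 of lowest p, and the 3 nearest patterns per member, of which those of 3 members are printed. Il6st, Serbp1, Myd88, Irak1, Foxo1, Gfi1, Gabpa, Nr3c1, CT010467.1 and individual marker genes were named outside that rule, after their values were seen. Libraries were made by PCR without molecular identifiers, so low counts such as those of Il6ra carry more than counting error.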

Additional observations from a re-analysis of the deposited data

How the results depend on the processing

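Of the 13 alternatives, Il7r stayed above 0 and Il18r1, Il6ra, Il2rb, Il2ra and Il18rap below 0 in each one that tested them, while the side of the threshold often changed. The number of members called was 0 with DESeq2 size factors in edgeR and 0 after GC correction (6 of 10 at an unadjusted p below 0.05 in each, where 18.9% and 16.1% of all genes were), 1 with at least 30 counts in 2 libraries, which no longer tested Il6ra, 1 with limma voom and 0 to 2 with 1 library left out. Over all genes the count was 321 with library sizes alone, 819 without a filter, 403 with DESeq2, 121 with limma voom, 98 after GC correction and 8 to 318 with 1 library left out. For the pathway genes it was 19 without a filter, 9 with DESeq2, 3 with limma voom and 0 to 6 with 1 library left out. The log2 value of Il12rb2 turned to -0.045 with library sizes alone and to -0.0015 with at least 30 counts in 2 libraries, and it ran from -0.059 to 0.13 over the omissions. That of Il10ra ran from -0.063 to 0.32 over the omissions. The cause of these changes was not tested.

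The labels do not say that replicate numbers pair the libraries, but Xist and Eif2s3y went with the replicate number in both groups. The gaps between replicates 1 and 2 correlated at 0.239 across genes between the groups. With the replicate number as a block, 794 genes, 15 pathway genes and 5 members passed, the members being Il7r (adjusted p = 0.00191), Il18r1 (0.000984), Il18rap (0.0204), Il2rb (0.0230) and Il6ra (0.0330), of which Il7r, Il18rap and Il2rb did not pass without it. With GC correction and the block together, 704 genes, 11 pathway genes and 4 members passed. Depth limits Il6ra most, at 5 to 27 counts per library.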
